A study of Saccharomyces cerevisiae with 12 samples.

Results

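The data described here are the state of unstressed budding yeast before a cell wall stress was applied, seen as nascent transcription and as mRNA abundance on the same array design. A spot was kept when at least 2 of its 3 intensities were above 0 in both assays at 0 min, which left 4936 of the 6144 spots of an array. Of the others, 837 spots had too few values in both assays, 233 had enough nascent values but too few mRNA values, and 138 had enough mRNA values but too few nascent values. All 6 intensities were above 0 for 4706 of the spots kept.

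The cells were Saccharomyces cerevisiae BY4741, a haploid laboratory strain labelled as wild type, grown at 24 °C in rich medium with glucose for 2.5 h after dilution of an overnight culture. The nascent group (3 arrays) and the mRNA group (3 arrays) were both sampled at 0 min, as the untreated starting point of a course with 30 µg/ml Congo Red, a dye that binds cell wall chitin. The whole series holds 36 arrays, 6 times and both assays. Nascent RNA was measured by genomic run-on (GRO): frozen cells were permeabilised with sarkosyl, and RNA polymerases already engaged on genes extended their transcripts with 33P-UTP. mRNA was measured on cDNA primed with oligo-dT and labelled with 33P-dCTP, a primer that pairs with poly(A) tails. The labels do not say whether the 3 arrays of a group came from separate cultures, and p-values therefore measure the spread between arrays, which may be technical.

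The level of an mRNA in a growing cell is set by how fast it is made and how fast it is lost, by decay and by dilution as the cell grows. At a steady level the ratio of synthesis rate to abundance equals the rate constant of loss, so an mRNA with a high ratio is short-lived and one with a low ratio is long-lived. In yeast, transcripts of ribosomal proteins and glycolytic enzymes are well-known examples of abundant mRNAs, and many transcripts of regulatory proteins are known for short lives. Run-on signal counts engaged polymerases over the probed sequence and takes no account of how fast each polymerase moves. No file gives the gene probed by a spot, so spots are called by their identifier (block row, block column and printing position). The scale between the assays is not known either, and the ratio is given relative to the typical spot and not as a rate constant.

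Summed intensity per array was 540338, 1091297 and 633802 on nascent replicates 1, 2 and 3, and 521650, 963618 and 1008460 on mRNA replicates 1, 2 and 3. The share of spots listed at 0 was 15.6%, 15.6% and 16.1% on the nascent arrays, against 16.1%, 17.3% and 18.2% on the mRNA arrays. The means were 15.8% for nascent and 17.2% for mRNA arrays, which overlapped, with p = 0.2 in the two-sided exact permutation test over 3 against 3 arrays, for which 0.1 is the smallest p possible. A total of 614 spots were at 0 on all 6 arrays. Another 90 spots were above 0 on all 3 nascent arrays and at 0 on all 3 mRNA arrays, and 50 spots showed the opposite. Each array was set to log2 and centred on its own median over the spots kept, and "level" below means this centred log2 intensity. Levels of different spots are not corrected for probe length or base content.

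The authors' deposited table gives synthesis rate and mRNA abundance at 0 min for 4569 of the 4936 spots. A further 119 spots have a value in some columns only, of which 99 have the synthesis rate at 0 min and 18 the mRNA abundance. The last 248 spots have no value in any column, for a reason that is not given in the labels. This split was made after the data had been seen, because these 248 spots stood apart on the arrays. Their values are given first, since they touch several results over all spots.

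Across the 248 spots the median nascent level was 1.79, 1.68 and 1.54 on replicates 1, 2 and 3, which is 3.46-, 3.21- and 2.91-fold above the array median. Their median mRNA level was 0.25, -3.07 and -1.84 on replicates 1, 2 and 3. These medians were thus alike on the nascent arrays, while they lay above the array median on mRNA replicate 1 and below it on mRNA replicates 2 and 3. They pool spots that were unlike each other, as given below. They carried 34.5%, 29.5% and 33.8% of all intensity of the spots kept on the nascent arrays, against 3.42%, 1.74% and 8.37% on the mRNA arrays. The 3 nascent arrays all lay above the 3 mRNA arrays in this share.

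Within the 248 spots, 98 were more than 8-fold above the array median on every nascent array, or 39.5%, against 46 of the 4569 spots in the table, or 1.01%. Their median nascent level was 4.72, 4.57 and 4.74 on replicates 1, 2 and 3, and their median mRNA level was 1.69, -3.11 and -2.85. On mRNA replicate 1, 97 of the 98 lay above the array median, against 9 on mRNA replicate 2 and 10 on mRNA replicate 3, where 16 more were listed at 0. The median ratio of nascent to mRNA signal was 6.33 (log2) for these 98 spots and 8.02 without mRNA replicate 1. The 46 table spots picked by the same brightness had a median ratio of -0.30. The other 150 of the 248 spots had median nascent levels of -0.60, -1.16 and -1.31 on replicates 1, 2 and 3. Their median mRNA levels were -1.38, -3.07 and -0.58. On mRNA replicate 1, 43 of the 149 with a value lay above the array median. On mRNA replicate 3, 47 of 139 were more than 8-fold above it. The 98 spots lay in 90 different blocks of the array, and 43 of them had printing position 13, 20 had position 2 and 16 had position 4.

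**Figure D1:**
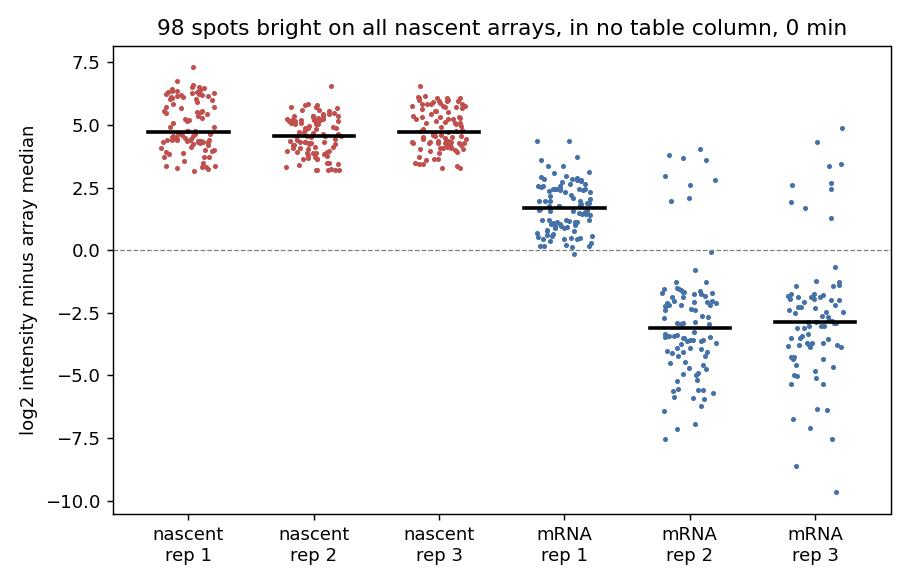
Centred log2 intensity (y axis) of the 98 spots that were over 8-fold above the array median on all nascent arrays and had no value in the authors' table, on the 3 nascent and the 3 mRNA arrays of 0 min (x axis). Points are spots, black bars are medians, and 16 spots at 0 on mRNA replicate 3 are not drawn. The nascent medians lie between 4.57 and 4.74, and the mRNA medians at 1.69, -3.11 and -2.85.

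Correlations across spots are given as descriptions, since spots are not independent replicates. Over the 248 spots mRNA replicate 1 correlated with nascent replicates 1, 2 and 3 at r = 0.776, 0.808 and 0.783. mRNA replicate 2 correlated with the same arrays at 0.109, 0.115 and 0.110, and mRNA replicate 3 at -0.279, -0.262 and -0.322. Within the 98 bright spots, mRNA replicates 1, 2 and 3 correlated with the mean nascent level at 0.667, 0.261 and 0.090. Within the other 150 the values were 0.665, 0.185 and 0.081. The 3 mRNA arrays correlated with each other at only 0.500, 0.037 and 0.371 here, while the nascent arrays correlated at 0.959 to 0.989. The order of the mRNA arrays recurred at the 5 later times, where the median of the 248 spots was 0.23 to 1.14 on replicate 1, -3.04 to -2.61 on replicate 2 and -2.07 to -1.81 on replicate 3. The later nascent arrays had medians between 1.27 and 2.70. The cause was not tested.

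The 119 spots with a value in some columns were a different set, dim in both assays. Their median nascent level was -2.90, -2.82 and -2.74, and their median mRNA level was -5.18, -5.41 and -5.72 on replicates 1, 2 and 3. All 3 nascent intensities were above 0 for 105 of them, against 40 for all 3 mRNA intensities. These spots sit low on the left of the plot of nascent against mRNA signal.

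**Figure D2:**
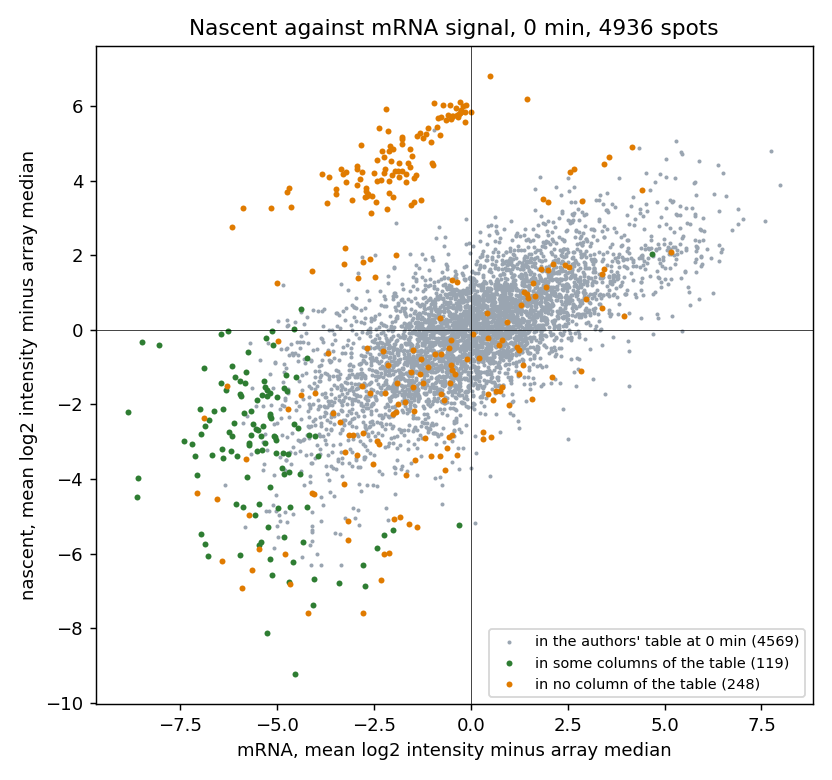
Mean centred log2 nascent signal (y axis) against mean centred log2 mRNA signal (x axis) at 0 min for 4936 spots, coloured by their place in the authors' table. The 4569 table spots form a single cloud with r = 0.699, the 119 spots in some columns lie at its dim end, and most of the 98 bright nascent spots among the 248 form a cloud of their own above it.

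The first question of the comparison is whether transcription and mRNA abundance rank the same features in an unstressed culture. Across the 4569 table spots the mean nascent and mean mRNA levels correlated with Pearson's r = 0.699 and Spearman's rho = 0.684. Single nascent and mRNA arrays correlated at 0.623 to 0.694 over their 9 pairs. Replicate arrays correlated at 0.895 to 0.952 within the nascent assay and at 0.924 to 0.948 within the mRNA assay, so every pair across assays lay below every replicate pair. Over all 4936 spots the values were r = 0.600 and rho = 0.636, with 0.468 to 0.679 across assays, 0.911 to 0.961 among nascent arrays and 0.848 to 0.884 among mRNA arrays.

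The array that moved the value over all spots most was mRNA replicate 1. Its mean correlation with the nascent arrays was 0.661 over all spots, against 0.514 and 0.504 for mRNA replicates 2 and 3, and r of the means was 0.526 without it. Over the table spots the 3 mRNA arrays gave 0.671, 0.665 and 0.656, and r was 0.688 without replicate 1. Without the 367 spots outside the table, the mRNA arrays no longer stood apart in this measure. Results from here on are for the table spots for this reason, unless all spots are named.

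Membership of the top and bottom ends was shared in part. Of the 457 table spots with the highest mean nascent level, 236 were also among the 457 with the highest mRNA level, or 51.6% of each list. Of the 457 dimmest nascent spots, 228 were among the 457 dimmest mRNA spots, or 49.9% of each list. Opposite extremes were few, with 20 of the brightest nascent spots in the lower 50% of mRNA levels and 18 of the brightest mRNA spots in the lower 50% of nascent levels.

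The second question is how widely each quantity ranges. Over the table spots the SD of the level across spots was 1.56, 1.45 and 1.52 on nascent replicates 1, 2 and 3, against 2.12, 2.08 and 2.30 on mRNA replicates 1, 2 and 3. The groups did not overlap. The means were 1.51 ± 0.06 for nascent and 2.17 ± 0.12 for mRNA signal (SD, n = 3 arrays each), with an exact two-sided permutation p of 0.1, the smallest possible, and 0.125 after Benjamini-Hochberg adjustment over 5 measures. The 10th and 90th percentiles of a nascent array lay 12.6-fold apart and those of an mRNA array 41.2-fold apart, from mean log2 ranges of 3.66 ± 0.16 and 5.36 ± 0.28. Over all 4936 spots these distances were 16.2-fold and 55.9-fold. The interquartile range spanned 3.58-fold in nascent and 6.12-fold in mRNA signal (exact permutation p = 0.1 for each range, no overlap).

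Over the table spots, abundance was also concentrated in fewer spots than transcription. The brightest 10% of table spots held 43.9%, 38.2% and 38.1% of the nascent intensity on replicates 1, 2 and 3, against 67.5%, 58.4% and 69.2% of the mRNA intensity. The means were 40.1 ± 3.3% for nascent and 65.0 ± 5.8% for mRNA signal, and no array of one assay reached the other (exact permutation p = 0.1). Over all 4936 spots the same shares were 56.0 ± 3.5% and 65.6 ± 5.7%, and there the arrays overlapped (exact permutation p = 0.2). Restriction to table spots thus lowered the nascent share from 56.0% to 40.1% and hardly moved the mRNA share. The contrast in this measure therefore depended on a restriction made after the data had been seen. The SD over all spots was 1.78 ± 0.06 for nascent and 2.37 ± 0.12 for mRNA signal (exact permutation p = 0.1, no overlap).

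**Figure D3:**
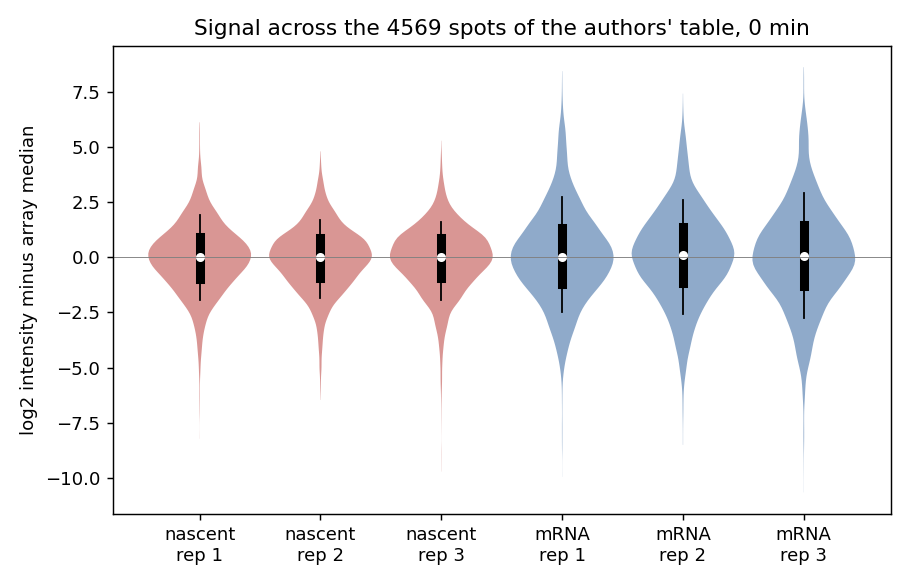
Distribution of the centred log2 intensity (y axis) of the 4569 table spots on the 3 nascent and the 3 mRNA arrays of 0 min (x axis). White dots are medians, thick bars the interquartile range and thin bars the 10th to 90th percentiles. Every mRNA distribution is wider than every nascent one, with a mean SD of 1.51 for nascent and 2.17 for mRNA arrays.

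Error between replicates accounted for little of these widths. The median SD of a table spot over 3 arrays was 0.26 for nascent and 0.37 for mRNA level. After the error of the mean was subtracted from the variance across spots, the SD was 1.46 for nascent and 2.10 for mRNA signal, a quotient of 0.696. The assays also differ in label nucleotide and priming, which cannot be told apart here from the quantity each one measures.

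The third question is which spots depart from the typical relation between synthesis and abundance. The nascent minus mRNA difference of each spot was tested with limma on the 6 arrays, with an adjusted p under 0.05 as the call. A difference of 0 is that of a spot equally far from the array median in both assays, called typical here. Among the 4569 table spots in a fit of their own, 1194 had a nascent signal higher than typical for their mRNA (26.1% of those tested) and 1428 had an mRNA signal higher than typical for their nascent signal (31.3%). No call was made for 1947 spots. Among the called spots the median difference was 1.48 (log2, 2.79-fold) where nascent was higher and -1.56 (2.96-fold) where mRNA was higher, with a median SE of 0.29 over all table spots. Differences over 4-fold were called for 326 and 439 spots in these directions. Centring of each array by itself did not put the median difference at 0. It was -0.10 over the 4569 spots in the fit of table spots, with 2173 above 0. In the fit of all spots the same table spots had a median of -0.15. There 1084 (23.7%) were called nascent-higher and 1428 (31.3%) mRNA-higher, so the balance of the sides depended on the centring.

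Over all 4936 spots the counts were 1286 nascent-higher spots (26.1%) and 1463 mRNA-higher spots (29.6%), with 3034 spots at an unadjusted p under 0.05. The calls among spots outside the table leaned to the nascent side. Of the 248 spots in no column, 134 were called nascent-higher (54.0%) and 25 mRNA-higher (10.1%), and of the 119 in some columns 68 and 10 were called. Without mRNA replicate 1 the 248 spots gave 137 and 32 calls. Of the 98 picked by their nascent level, which enters the difference, 96 were called, and their median ratio was 6.33. The 248 spots were set apart with these arrays already seen, so the lean of their calls is no separate result.

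The ratio of nascent to mRNA signal spanned 13.4-fold between its 10th and 90th percentiles over the table spots, with an SD of 1.52 (log2). Of these spots, 51.4% lay within 2-fold of the median ratio. The error variance of a spot's difference made up 7.35% of the variance of the ratio, against 11.5% over all spots. Ratios formed from single pairs of arrays with the same number correlated at 0.812, 0.791 and 0.895 between replicates 1 and 2, 1 and 3, and 2 and 3. Most of the range of the ratio thus lay beyond replicate error.

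How the ratio lines up with either level follows from the widths and the correlation already given. With an SD of 1.48 for the mean nascent level, 2.13 for the mean mRNA level and r = 0.699, arithmetic fixes the correlation of the ratio at r = -0.003 with the nascent level and r = -0.718 with the mRNA level, and these were the values found. Levels on the 30 min arrays were measured apart from the ratio of 0 min, but on the same spots. Random error of an array is therefore not shared, while any effect fixed to a spot is. These levels gave r = -0.017 for nascent and r = -0.694 for mRNA signal across 4569 spots. When each array was first divided by its SD, an alternative added after seeing the data, the values were 0.366 for nascent and -0.366 for mRNA. The unequal relation to the levels therefore depended on the relative scale of the assays and is no result separate from the wider spread of mRNA signal.

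On the log2 scale of the deposited intensities, the size of this dependence was as follows. Grouped in 10 equal bins by the nascent level at 30 min, the median ratio of 0 min lay between -0.35 and 0.17. Grouped by the mRNA level at 30 min, it was 1.70 in the dimmest bin (3.25-fold above the typical spot) and -2.14 in the brightest (4.40-fold below). In the dimmest mRNA bin 297 of 457 spots were called nascent-higher and 12 mRNA-higher. In the brightest mRNA bin 3 of 457 were called nascent-higher and 394 mRNA-higher (86.2%, against 31.3% of all table spots).

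**Figure D4:**
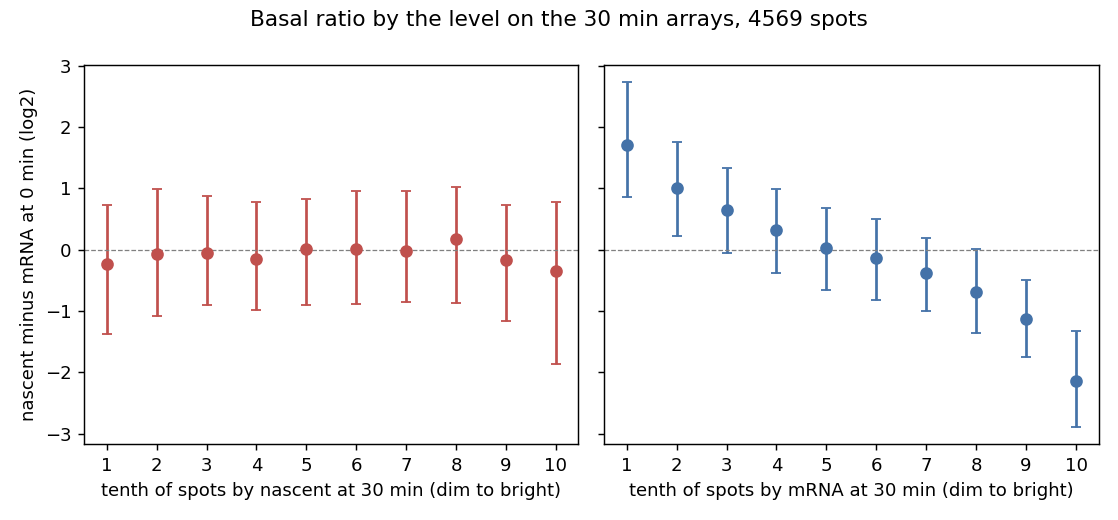
Nascent minus mRNA difference at 0 min (log2, y axis) of the 4569 table spots in 10 bins from dim to bright (x axis), by the nascent level (left) and by the mRNA level (right) on the 30 min arrays. Points are medians and bars the interquartile range. The medians lie between -0.35 and 0.17 on the left and between 1.70 and -2.14 on the right, a contrast that rests on the relative scale of the assays.

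Replicates were noisier at both ends than in the middle, most of all for mRNA at the dim end. In the dimmest of the 10 mRNA bins the median SD of a spot over 3 arrays was 0.36 for nascent and 0.71 for mRNA level. It was 0.23 for nascent and 0.32 for mRNA in bin 6, and 0.34 for nascent and 0.42 for mRNA in the brightest bin. The part of dim signals in the high ratios was not tested. Leaving out the lowest 25% of either assay was done over all spots and not over the table spots alone. It gave 845 nascent-higher and 973 mRNA-higher calls of 3226 spots. Each array was centred again on the spots left, so calls in both directions cannot decide this question.

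The authors' deposited table gives the same comparison in their own combined units, with the scale of each column unstated and 1 value per spot. In it, synthesis rate and mRNA abundance at 0 min correlated at r = 0.675 on the log2 scale and rho = 0.656 over 4569 spots. Per the series' design text, synthesis rate is the run-on signal scaled to cell volume, with a factor of 1 at this time. In the authors' deposited table the 10th and 90th percentiles lay 12.5-fold apart for synthesis rate and 39.0-fold apart for abundance. The top 10% of spots held 39.4% of summed synthesis rate and 67.0% of summed abundance in that table, and the top lists shared 227 of 457 spots (49.7% of each).

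The authors' ratio of synthesis rate to abundance had an SD of 1.55 (log2) and a range of 14.2-fold between its 10th and 90th percentiles. Across spots it correlated with the array ratio at r = 0.965, both being made from the same experiments. Of the 1194 nascent-higher spots 1193 lay above the median ratio of the authors' deposited table, and of the 1428 mRNA-higher spots 1423 lay below it. Binned by abundance, the median of the authors' ratio was 3.33-fold its median over all spots of that table in the dimmest 10% and 0.224-fold in the brightest. Binned by synthesis rate, it lay between 0.790- and 1.18-fold, and these bins depend on the relative scale of the columns in the same way.

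Values of single spots show what these differences look like on the arrays. The naming rule took the called spots with the most extreme ratios whose nascent levels all lay on a single side of their mRNA levels, and the brightest spot of each assay. The lowest ratio was that of R15 - C19 : 9, with nascent levels of -1.19, -1.30 and -2.06 and mRNA levels of 3.74, 3.86 and 4.65. Its nascent signal was below the array median on all arrays and its mRNA far above it, a difference of -5.60 ± 0.36 (log2, SE; limma adjusted p = 8.8e-04). R9 - C7 : 11 came next, with nascent levels of -0.18, -0.14 and 0.22 and mRNA levels of 6.86, 4.18 and 5.35. Here a middling nascent signal stood beside an mRNA level in the 98.8th percentile, a difference of -5.49 ± 0.64 (limma adjusted p = 0.00135) that was -4.80 without mRNA replicate 1 and -6.13 without mRNA replicate 2. In the authors' deposited table these spots had synthesis rates of 0.0266 and 0.0549 beside abundances of 22.3 and 91.7.

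The brightest mRNA spot was R13 - C8 : 16, at 8.46, 7.44 and 8.03 on the mRNA arrays. Its nascent levels of 4.46, 4.12 and 3.11 were also high, in the 97.9th percentile. Its difference was -4.08 ± 0.43 (limma adjusted p = 0.00112), so that a spot bright in both assays was called mRNA-higher. The spot was picked by the mRNA level that also enters its difference. Of the 457 table spots brightest in mRNA at 0 min, 399 were called mRNA-higher (87.3%, against 31.3% of all table spots). The difference of R13 - C8 : 16 was -2.85 after quantile normalisation over the 6 arrays and -3.43 with each printing position centred. In the authors' deposited table this spot had a synthesis rate of 1.28 and an abundance of 496.

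The highest ratios by the rule belonged to spots outside the table. R16 - C11 : 13 had nascent levels of 1.36, 3.08 and 3.83 and mRNA levels of -1.19, -6.67 and -10.62. Its mRNA intensities were 12.7, 0.676 and 0.030, where the array medians were 28.9, 69.0 and 47.2, so replicates 2 and 3 lay near 0 and the size of the difference is poorly set. It was 8.91 ± 2.23 (limma adjusted p = 0.0152), 11.40 without mRNA replicate 1, 6.68 without mRNA replicate 3, 9.61 without nascent replicate 1 and 9.60 with each printing position centred. Without nascent replicate 3 it was no longer called, at 8.38 with an adjusted p of 0.0521. R10 - C21 : 13 had a nascent level of 3.80 ± 0.29 (SD, n = 3) and mRNA levels of 0.14, -5.57 and -8.63, a difference of 8.49 ± 2.03 (limma adjusted p = 0.0130). This was 10.90 without mRNA replicate 1, 6.51 without mRNA replicate 3 and 9.17 with each printing position centred, and its mRNA intensities of 1.46 and 0.119 on replicates 2 and 3 were again near 0. The brightest nascent spot, R13 - C2 : 13, had nascent levels of 7.31, 6.57 and 6.56 and mRNA levels of 3.71, -0.80 and -1.39. All 3 spots had printing position 13 and their highest mRNA value on replicate 1.

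Among the table spots, a restriction made after their values were seen, the highest ratio was that of R2 - C5 : 4. Its nascent levels were 5.95, 4.82 and 5.30 and its mRNA levels were 2.28, -2.40 and -2.73, again with replicate 1 above the array median and the others below it. The difference in the fit of table spots was 6.36 ± 1.21 (limma adjusted p = 0.00323), and the authors' deposited table gives it a synthesis rate of 3.45 and an abundance of 0.240. In the fit of all spots its difference was 6.30, 7.92 without mRNA replicate 1, 5.58 and 5.41 without mRNA replicates 2 and 3, and 5.71 with each printing position centred. R8 - C7 : 11 followed, with nascent levels of 1.36, 0.77 and 1.49, mRNA levels of -2.56, -8.36 and -3.57, and a difference of 6.09 ± 1.32 (limma adjusted p = 0.00577). Its mRNA was dim on every array, with intensities of 4.90, 0.21 and 3.99 on replicates 1, 2 and 3. In the fit of all spots its difference was 6.04, and 7.17, 4.27 and 6.67 without mRNA replicates 1, 2 and 3.

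The ratio also varied with where a spot was printed. Each of the 384 blocks holds 16 positions, and the median ratio of the table spots ran from -1.45 at position 13 (295 spots) to 0.75 at position 8 (349 spots). At position 13 the 3 replicates gave -1.35, -1.21 and -1.70, and at position 8 they gave 0.80, 0.70 and 0.72. The replicates lay on the same side at both positions, but not at every position, with 0.41, -0.05 and -0.30 at position 6. Levels also differed by position. The median mRNA level was 1.26 at position 13 and -0.15 at position 8, and the median nascent level was 0.13 and 0.72. The part of the mRNA level in the ratio by position was not tested. Position accounted for 10.6% of the variance of the ratio, against 0.409% for the row and 0.766% for the column of the block. After each position was centred by itself, 1076 table spots were called nascent-higher and 1336 mRNA-higher, and r of the levels was 0.707. How genes were distributed over positions is not given in the sources used here, so printing and gene content cannot be told apart.

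**Figure D5:**
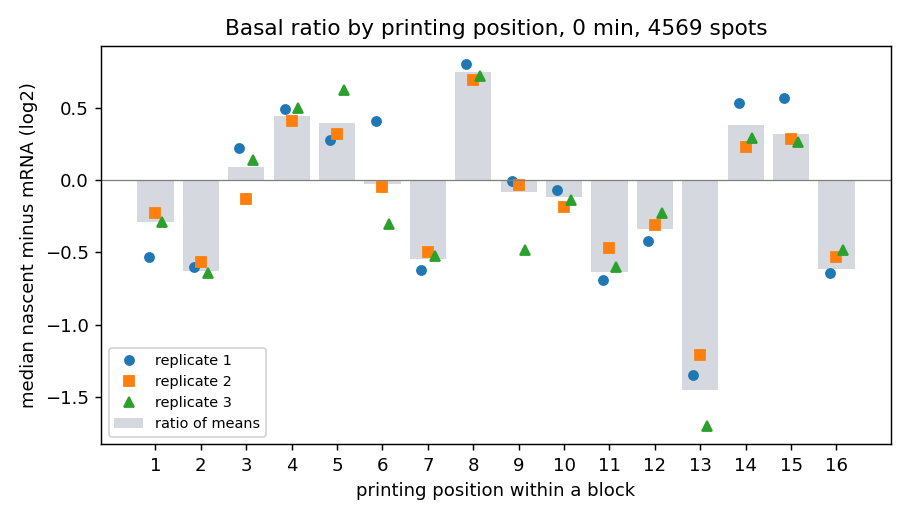
Median nascent minus mRNA difference at 0 min (log2, y axis) of the 4569 table spots at each of the 16 printing positions within a block (x axis). Bars are the ratio of means and symbols are single replicates. Position 13 is lowest at -1.45 and position 8 highest at 0.75.

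The difference between spots was still present at the first times under Congo Red, measured on separate arrays. Of the nascent-higher table spots with a value, 1188 of 1190 lay on the same side at 30 min and 1181 of 1184 at 60 min. Of the mRNA-higher spots, 1425 of 1427 and 1423 of 1427 did so. Among all table spots 48.0% lay above and 52.0% below the typical ratio at 30 min. The median of the nascent-higher spots was 1.43 at 30 min and 1.42 at 60 min, and that of the mRNA-higher spots -1.49 and -1.44. Over all table spots the ratio at 0 min correlated with that at 30 min at r = 0.966 and with that at 60 min at r = 0.961. Over all 4936 spots, 1256 of 1258 nascent-higher and 1459 of 1461 mRNA-higher spots lay on the same side at 30 min. Of all spots with a value, 47.8% lay on the nascent side and 52.2% on the mRNA side at that time. The arrays of all times carry the same spots. An effect fixed to a spot would also recur and cannot be told apart here from a property of the mRNA.

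The correlation between the assays moved little across the course, while the spread of the mRNA level became narrower. The correlation of mean nascent and mean mRNA levels over table spots was 0.699, 0.706, 0.713, 0.712, 0.728 and 0.722 at 0, 30, 60, 120, 180 and 240 min, and lay between 0.599 and 0.624 over all spots. The SD of the nascent level across table spots was 1.48 at both 0 min and 240 min. That of the mRNA level was 2.13, 2.07, 2.07, 2.04, 2.00 and 1.98 at the same 6 times, lower at each step. No test was made of these values over time.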

How the data were processed

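Intensity per spot was used as the authors deposited it, 1 value per spot and array, for the 3 nascent and 3 mRNA arrays of 0 min, with the later arrays for repeats. Per the labels, nascent RNA carried 33P-UTP and cDNA 33P-dCTP. The sources used here name no scanner, image software or background treatment. The authors' deposited table holds 1 signal per spot, time and measure, with replicates combined. The identifiers had 0 matches among 6477 reference genes, so the planned gene lists were not run. Replicate numbers are those of each sample's array files, since the labels give only their range.

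Intensities of 0 were set to missing, the rest taken to log2 with no pseudocount, and each array centred on its median, which removes any overall difference between assays. Limma 3.58.1 in R 4.3.3 was fitted to the 6 arrays (lmFit, eBayes), with Benjamini-Hochberg adjustment over all spots tested and a threshold of 0.05. The script was tested on simulated data. Measures per array were compared with two-sided exact permutation tests over 3 against 3 arrays. Other values came from Python 3.11.15 with numpy 2.4.6, pandas 2.3.3 and scipy 1.17.1, and plots from matplotlib 3.10.9. Array number limits precision. No 2 arrays of 0 min were identical.

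Same-numbered nascent and mRNA arrays deviated from their group means with correlations of 0.018, 0.201 and -0.063 over all spots. Over table spots the values were 0.028, 0.211 and 0.052, against -0.145 to 0.043 for arrays of different number. The numbers were not taken to pair arrays. With the replicate number as a block, 1175 table spots were called nascent-higher and 1374 mRNA-higher. Named spots were the first 2 and the last 2 by ratio among called spots with 6 values above 0 and no overlap between assays, and the brightest spot of each assay. Spots, groups of spots and tests were chosen with earlier results of these data known. Alternatives covered normalisation, printing position, filters on dim spots, values of 0, the variance model and each array left out. Restriction to the spots of the authors' table, and scaling of each array to an equal SD, were added after seeing the data.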

Additional observations from a re-analysis of the deposited data

How the results depend on the processing

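Over all 4936 spots, 2749 were called at 0 min. Leaving out the lowest 25% of either assay, which tests fewer spots by construction, gave 1818 calls (845 nascent-higher and 973 mRNA-higher), r = 0.48, rho = 0.51 and a nascent minus mRNA difference of -1.39 in the log2 range between the 10th and 90th percentiles. The same step on the authors' deposited table gave an SD of the ratio of 1.32. With table spots only, chosen after seeing the data, the share of intensity on the brightest 10% differed by -25.0 percentage points, against -9.69 over all spots. With the replicate number as a replicate block 2555 spots were called. The other settings gave 2044 to 2930 calls and r of 0.526 to 0.707. Leaving out each array in turn gave 2044 to 2797 calls, r of 0.526 to 0.629, and shares of called spots on the same side of 99.5 to 99.9% at 30 min and 99.3 to 99.9% at 60 min. In the spread of the levels nascent stayed below mRNA under every filter on spots and with each array left out. Quantile normalisation over the 6 arrays and division by the SD make the spreads alike by construction. They could not test this result. Among named spots only R16 - C11 : 13 lost its call in a setting that kept the spot, without nascent replicate 3. Leaving out the lowest 25% of either assay removed R16 - C11 : 13, R10 - C21 : 13, R8 - C7 : 11 and R15 - C19 : 9. Their calls were therefore not tested under that filter. The brightest nascent spot, R13 - C2 : 13, had a difference of 6.31, with 5.36 to 7.90 over all settings run. With each array divided by its SD, an alternative added after seeing the data, the ratio correlated with the 30 min level at 0.37 for nascent and -0.37 for mRNA, against -0.02 and -0.69. The median SE of the difference was 1.23 for the 248 spots in no column of the table, 0.45 for them without mRNA replicate 1, and 0.29 for table spots.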
